A study of Mus musculus with 20 samples.

Results

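The synaptic adhesion genes described here are the 34 autosomal protein-coding mouse genes whose symbol is Nrxn, Nlgn, Nxph, Cntn, Cntnap, Lrrtm, Slitrk, Lrfn or Elfn followed by a number. They were chosen by symbol from 21284 autosomal protein-coding genes of GENCODE vM1 on build NCBIM37 (mm9). They comprise neurexins, 2 neuroligins, 4 neurexophilins, 6 contactins, 4 contactin-associated proteins, 4 Lrrtm, 4 Slitrk, 5 Lrfn and 2 Elfn genes. The 3 X-linked genes Nlgn3, Slitrk2 and Slitrk4, and the 3 Cntnap5 genes whose number carries a letter, fall outside the rule. Many of the 34 are very long. Their median length was 103 kb (3.88 to 2241 kb), against 15.6 kb over all 21284 genes, and 13 (38.2%) spanned at least 200 kb, against 4.28% of all genes.

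The study mapped histone marks and transcription factor binding by chromatin immunoprecipitation and sequencing in mouse embryos at embryonic day 13.5. H3K4me3 marks promoters, H3K4me1 marks enhancers, H3K27ac marks active elements of either kind and H3K27me3 is laid down by Polycomb. These 4 marks were mapped in medial ganglionic eminence (MGE) of C57BL/6 embryos, wild type or Nkx2-1cKO (Nkx2-1 removed conditionally; "the mutant" from here on). NKX2-1 and LHX6, homeodomain factors of the MGE, were mapped in wild-type basal ganglia of the CD-1 strain, so factor and mark data differ in strain and dissection. The measure is the length covered by the authors' called regions, from 1 library per antibody and genotype, so differences compare single libraries and carry no error between replicates. The Cre driver, the cells in which it acts and the number of embryos are not given in the sources used here, and the alignments behind the lists are named as merged in the file headers. Because tissue was profiled in bulk, a mark carried by fewer cells and a weaker mark per cell cannot be told apart.

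Neurexins are presynaptic receptors that bind postsynaptic neuroligins and Lrrtm proteins across the cleft, and the secreted neurexophilins bind neurexins of the alpha type. Contactins are membrane-anchored immunoglobulin-family proteins of the axon that pair with contactin-associated proteins, while Slitrk, Lrfn and Elfn proteins are leucine-rich repeat proteins, many of them postsynaptic partners of receptor tyrosine phosphatases or glutamate receptors. Together such proteins help to specify which neurons form synapses and of which kind. The MGE produces GABAergic interneurons and projection neurons, and NKX2-1 sets its regional identity while LHX6 acts in its postmitotic cells.

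At their promoters, most of the 34 genes carried active and Polycomb marks side by side in wild type. A promoter was taken to carry a mark where a region lay within 2.5 kb of a transcription start site (TSS) of a protein-coding transcript. H3K4me3, H3K27ac and H3K27me3 occurred together at 20 of 34 promoters (58.8%), against 13.4% of all genes. Among these 20 were Nrxn2, Nrxn3, Nxph1, Nxph2, Nxph4, Cntn1, Cntn2, Cntn4, Cntnap1, Lrrtm1, Lrrtm3, Slitrk1, Slitrk3, Slitrk5, Lrfn2, Lrfn3, Lrfn5, Elfn1 and Elfn2. A further 11 (32.4%; 43.8% of all genes) had H3K4me3 and H3K27ac without H3K27me3, namely Nlgn1, Nlgn2, Cntn5, Cntn6, Cntnap2, Cntnap3, Cntnap4, Lrrtm2, Lrrtm4, Lrfn1 and Lrfn4. Nxph3 had H3K4me3 with H3K27me3 and no H3K27ac, Slitrk6 had H3K4me3 alone, and Cntn3 had none of the marks in either genotype. Co-occurrence in bulk tissue does not show that the marks lie on the same chromosomes, since different cells can carry them. In a gene with several promoters they can also lie at different ones.

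These promoter states were nearly the same in the mutant lists. H3K27ac was lost from 1 promoter, that of Nxph4 (0.601% of all genes lost it), and gained at 0 (2.5% of all genes). H3K27me3 was lost from Lrfn3 (0.531% of all genes) and gained at Cntnap2 (3.44% of all genes). H3K4me3 was lost from 0 members (0.108% of all genes) and gained at 0 (1.27%), and H3K4me1 was likewise lost from 0 (1.36%) and gained at 0 (1.17%). The differences described next are in how far a mark extended and in regions inside the genes.

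To compare extent, the bases covered by each mark within 10 kb of a gene's TSSs were summed, over the union of the windows of its TSSs. A gene was called lower or higher in the mutant where the longer length was at least 1 kb and the lengths differed at least 1.5-fold. H3K27ac was called lower at 5 of 34 members (14.7%), against 1.48% of all 21284 genes: Nxph1, Nxph4, Elfn1, Elfn2 and Cntn1. It was called higher at 6 (17.6%), against 3.85% of all genes, among them Cntnap2, Cntn2, Lrrtm3, Slitrk3 and Lrfn3. Members carry more of the mark than most genes, since 5.88% of members and 32.7% of all genes had no H3K27ac there in either genotype. Among the 12138 genes with at least 1 kb in a genotype, 2.6% were called lower and 6.75% higher, and the members with as much numbered 28. The median member had 2.72 kb in wild type against 2.43 kb in the mutant, and the median of all genes was 1.16 and 1.28 kb. H3K27ac was longer in the mutant at 14 members, shorter at 18 and equal at 2 (9703, 4590 and 6991 of all genes). Over the 34 members the summed H3K27ac length was 115 kb in wild type against 112 kb in the mutant (mutant over wild type 0.975), while over all genes the ratio was 1.07. Of these 11 calls, those of Nxph1 and Elfn1 held under every alternative tried. Restricting the lists to regions of −log10 p of at least 10 ended the calls of Cntn1, Elfn2, Nxph4 and Lrrtm3. Windows of 5 kb ended those of members including Cntn1, Cntn2, Cntnap2 and Slitrk3, and windows of 25 kb those of Nxph4, Lrfn3 and Cntn2. Trimming the mutant list to the wild-type length ended the call of Lrrtm3. A limit of 2-fold ended those of members including Cntn1, Elfn2, Cntnap2, Lrrtm3, Slitrk3 and Lrfn3.

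**Figure D1:**
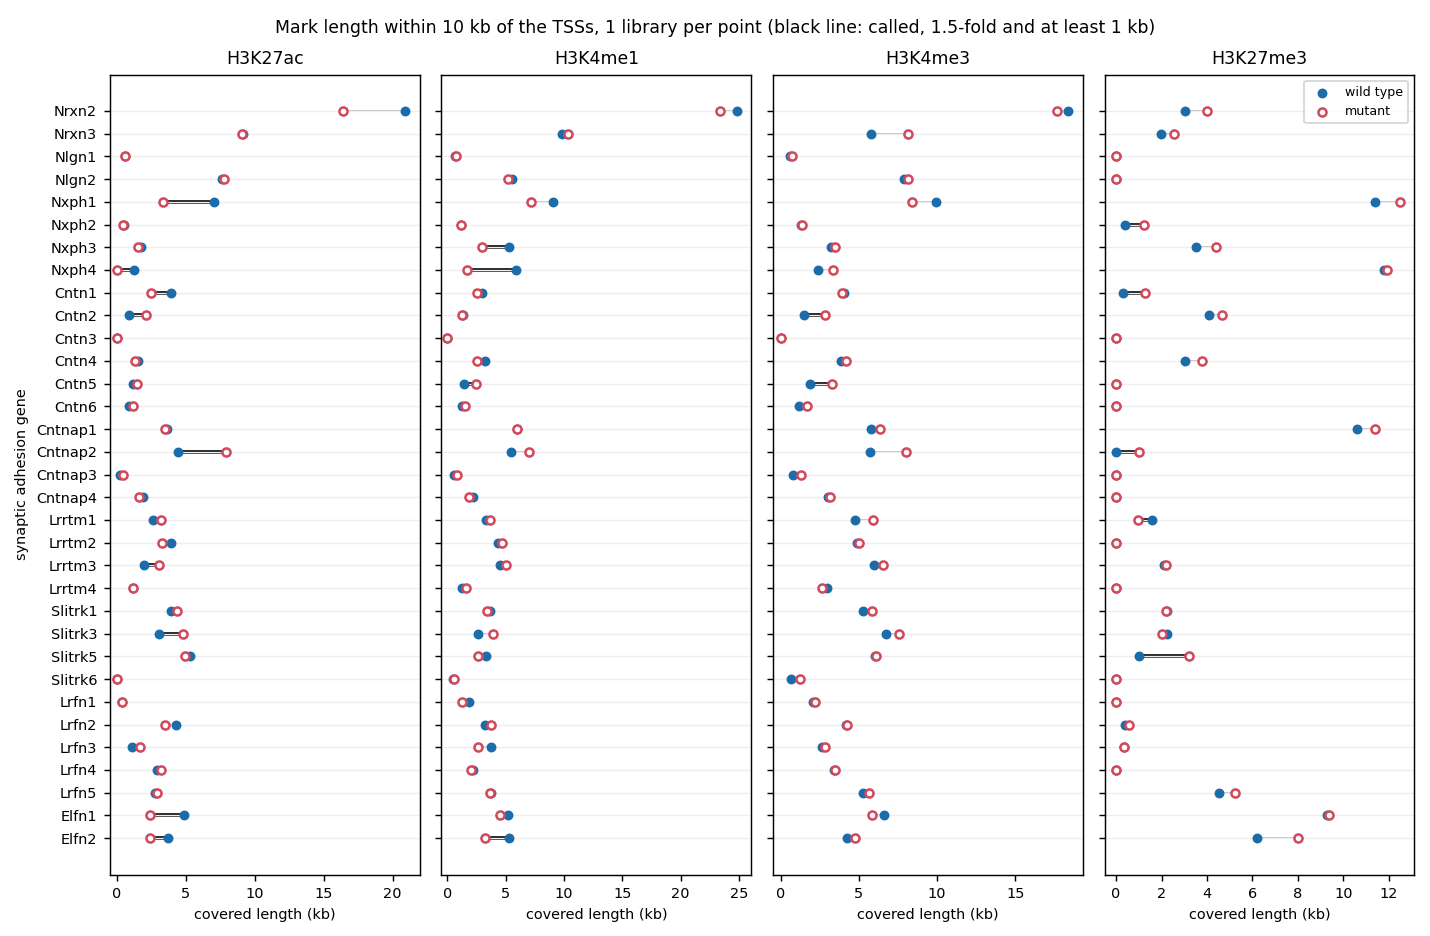
Length in kb covered by each of 4 histone marks within 10 kb of the TSSs of each gene shown (1 row per gene), in wild type (filled) and mutant (open), 1 library per point. A black line joins the points of a call; for H3K27ac, Nxph1 moves from 7.05 to 3.38 kb and Cntnap2 from 4.44 to 7.95 kb.

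The other marks gave fewer calls. H3K4me1 was called lower at 3 members (2.55% of all genes), Nxph3, Nxph4 and Elfn2, and higher at 2 (3.09%), among them Cntn5. H3K4me3 was called lower at 0 (0.117%) and higher at 4 (2.72%), Cntn2, Cntn5, Cntnap3 and Slitrk6. H3K27me3 was called lower at 2 (0.324%), among them Lrrtm1, and higher at 4 (5.85%), Cntn1, Cntnap2, Nxph2 and Slitrk5. For H3K27me3 the share depends on the genes compared. Among the 4809 genes with at least 1 kb of it in a genotype 25.9% were called higher, and 20 members had as much. H3K4me3 was longer in the mutant at 28 of 34 members and shorter at 5, a direction shared by most genes with a difference (13911 longer and 1545 shorter of all 21284), with medians of 4.08 and 4.21 kb (1.86 and 2.07 kb over all genes). H3K4me1 was longer at 15 and shorter at 18 (7826 and 7963 of all genes; medians 3.31 and 2.79 kb, and 1.44 and 1.43 kb over all genes), and H3K27me3 longer at 17 and shorter at 4 (5591 and 967 of all genes; medians 0.706 and 1.14 kb, and 0 in both over all genes). The mutant lists were longer in sum, covering 1.31 times the wild-type autosomal length for H3K27me3, 1.22 for H3K4me3, 1.12 for H3K27ac and 1.1 for H3K4me1.

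Inside and around the genes (gene body with 10 kb on each side), H3K27ac regions present in 1 genotype were counted as lost or gained. The members held 265 wild-type regions, of which 69 had no overlapping mutant region (26%; 17.5% of regions over all genes), and 297 mutant regions, of which 103 had no wild-type counterpart (34.7%; 25.6%). Beyond 2.5 kb of any TSS the shares stood closer to those of all genes, with 58 of 192 lost (30.2%; 26.6%) and 98 of 229 gained (42.8%; 35.8%). The 5 members called lower held 31 of the losses among 51 wild-type regions and 1 gain among 28 mutant regions. The 6 called higher held 4 losses among 64 and 47 gains among 94, and the 23 called neither held 34 losses among 150 and 55 gains among 175. Several members had both, such as Nrxn3 with 14 lost and 24 gained. Part of these regions lie in the windows that made the calls, so the split by call is a description. Changed regions were weaker than shared ones by the authors' own score, with a median −log10 p of 9.04 when lost and 10.6 when gained, against 18.1 and 21.8 for regions shared with the other genotype.

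**Figure D2:**
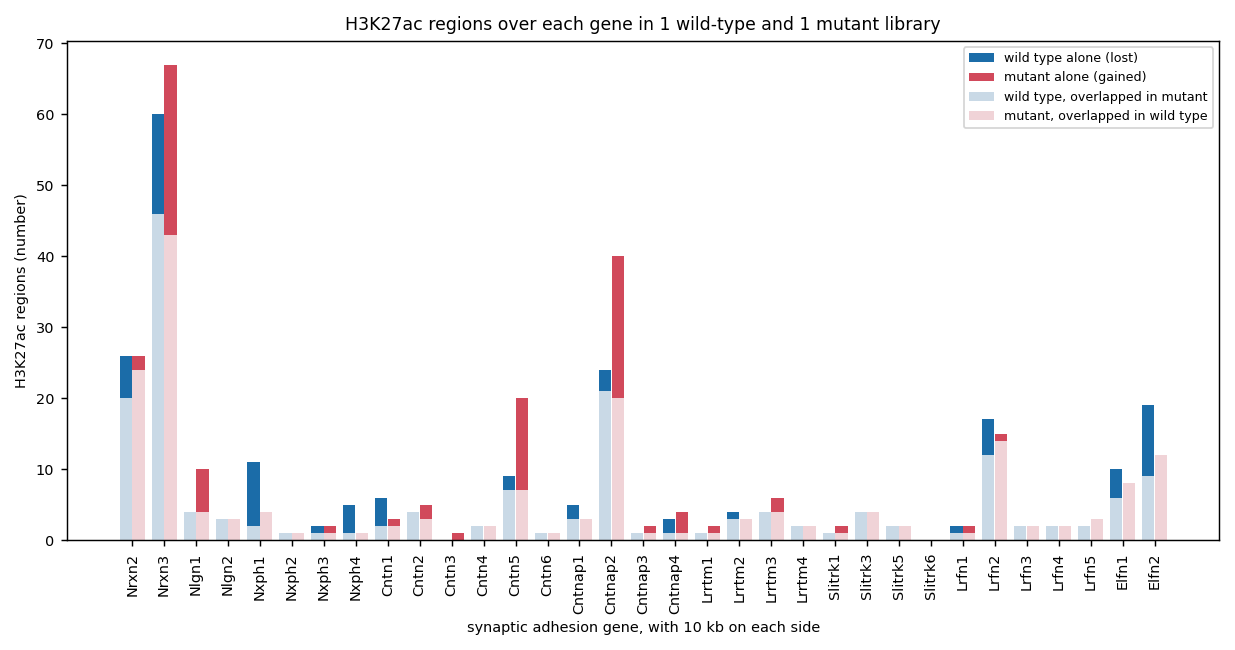
Number of H3K27ac regions over each gene shown with 10 kb on each side, stacked as shared (pale) and present in 1 genotype alone (dark), for 1 wild-type and 1 mutant library. Nxph1 lost 9 of 11 regions and gained 0, Elfn2 lost 10 of 19 and Cntnap2 gained 20 of 40.

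Of the presynaptic receptors, Nrxn2 (chromosome 19, 6418731 to 6544169, plus strand) was covered by H3K27ac over 20.9 kb of its 50 kb of windows in wild type against 16.4 kb in the mutant, a difference under the limit for a call (1.28-fold). H3K4me1 covered 24.8 and 23.4 kb and H3K4me3 18.4 and 17.7 kb. Its 3 promoters all carried H3K4me3, and wild-type H3K27me3 lay at the second alone (3.02 kb), while the mutant had 3.43 kb there and 0.574 kb at the first. Nrxn2 lost 6 of 26 H3K27ac regions and gained 2 of 26. An NKX2-1 peak lay 5.27 kb downstream of a TSS in the gene (19, 6502928 to 6503265, −log10 p 22.4).

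Nrxn3 (chromosome 12, 89961320 to 91573375, plus strand) held more H3K27ac regions and more factor peaks than any other member. H3K27ac covered 9.13 kb of its TSS windows in wild type against 9.06 kb in the mutant, and over the whole gene 51.9 and 57.6 kb. Despite the near-equal lengths, 14 of 60 wild-type regions were lost and 24 of 67 mutant regions gained. Of its 5 groups of protein-coding TSSs, the fourth, 1018 kb from the first, carried H3K4me3 (2.77 kb in wild type against 3.65 kb in the mutant) together with H3K27ac and H3K27me3, and the other groups carried no H3K4me3. A long H3K4me3 region (7471 bases in wild type, 6671 in the mutant) lay instead over the annotated 5′ end of Nrxn3, 69.7 kb before the first protein-coding TSS.

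At Nrxn3 the LHX6 peak and an NKX2-1 peak overlapped 6 kb downstream of the first group of protein-coding TSSs, farther from the annotated 5′ end of the gene. They were the strongest LHX6 peak over any member (chr12:90039469-90039891, −log10 p 65.2, fold 11.5, above 94.5% of the LHX6 list) and an NKX2-1 peak of −log10 p 58.3 and fold 9.11 (chr12:90039573-90040216, above 95.5% of its list). Both lay in 1 wild-type H3K27ac region of 4319 bases that was overlapped in the mutant list, and both carried H3K4me1 and H3K4me3 in both genotypes and no H3K27me3. Another 2 of the strongest NKX2-1 peaks over members lay in introns of Nrxn3, at chr12:91351976-91352341 (−log10 p 33) and chr12:90109242-90109719 (−log10 p 29.6), on H3K27ac and H3K4me1 in both genotypes. The 201 bases around 3 of these summits are printed because they are the places where these factors were found in a member with the highest −log10 p, or hold an NK2 core. The windows are chr12:90039582-90039782, chr12:90039877-90040077 and chr12:90109370-90109570, on the plus strand of NCBIM37, with matches to the NK2 cores CACTTGA or CACTCAA and to the LIM homeodomain cores TAATTA or TAATGA, on either strand, in capitals.
Nrxn3 LHX6: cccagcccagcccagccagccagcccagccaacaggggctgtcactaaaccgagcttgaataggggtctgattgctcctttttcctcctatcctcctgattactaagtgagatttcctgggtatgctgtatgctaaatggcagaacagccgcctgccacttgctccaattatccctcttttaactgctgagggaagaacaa
Nrxn3 NKX2-1, 6.35 kb: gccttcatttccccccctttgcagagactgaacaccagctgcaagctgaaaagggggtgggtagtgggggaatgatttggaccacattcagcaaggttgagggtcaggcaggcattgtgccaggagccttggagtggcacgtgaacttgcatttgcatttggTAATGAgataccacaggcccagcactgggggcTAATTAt
Nrxn3 NKX2-1, 75.8 kb: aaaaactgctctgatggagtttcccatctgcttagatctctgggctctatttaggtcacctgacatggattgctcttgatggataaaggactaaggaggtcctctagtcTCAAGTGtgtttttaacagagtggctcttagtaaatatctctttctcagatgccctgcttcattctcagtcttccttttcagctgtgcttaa
None of the 4 cores occurred around the LHX6 summit, TAATGA and TAATTA occurred 62 and 94 bases after the summit of the overlapping NKX2-1 peak, and TCAAGTG, an NK2 core on the other strand, occurred 9 bases after the summit at 75.8 kb. Over all 1651 LHX6 windows of this length 41.6% held a LIM core (17.1% of windows 1 kb to the side), and over all 5683 NKX2-1 windows 21.4% held an NK2 core (4.94% to the side) and 25.8% a LIM core. Matches to these short words can overlap each other and are a description of letters, not of a bound site.

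**Figure D3:**
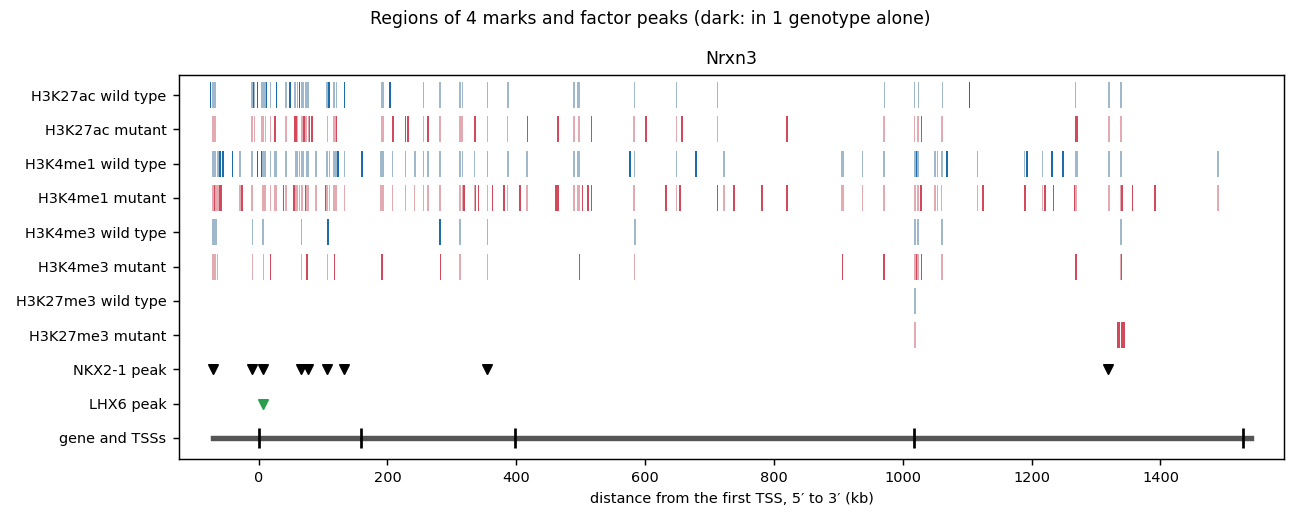
Regions of the 4 marks in each genotype along Nrxn3, with factor peaks (triangles), the gene (bar) and protein-coding TSSs (ticks), by distance from the first TSS in kb; dark bars are regions present in 1 genotype alone. NKX2-1 peaks cluster in the 5′ part around the single LHX6 peak, and a mutant-only group of H3K27me3 regions lies at 1338 kb.

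The neurexophilins, secreted ligands of alpha-neurexins, included the largest relative losses of H3K27ac among the members. Nxph1 (chromosome 6, 8898431 to 9199032, plus strand) had 7.05 kb of H3K27ac within 10 kb of its TSSs in wild type against 3.38 kb in the mutant, 2.09-fold less. H3K4me1 covered 9.07 and 7.14 kb, H3K4me3 9.91 and 8.36 kb and H3K27me3 11.4 and 12.5 kb, none of them called. Over the gene, 9 of 11 wild-type H3K27ac regions were lost, among them all 6 that lay beyond 10 kb of the TSSs, and 0 of 4 mutant regions were gained. H3K27ac length over the gene was 9.61 kb in wild type against 3.38 kb in the mutant.

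The strongest lost H3K27ac region of any member lay in Nxph1, 186 kb downstream of the first TSS in an intron (chr6:9084098-9084660, −log10 p 18.1), and it overlapped an LHX6 peak (chr6:9083729-9084174, −log10 p 29.4, fold 6.95). An NKX2-1 peak (chr6:9083688-9084054, −log10 p 16.6) overlapped the same LHX6 peak, and another lost H3K27ac region (9083007 to 9083441, −log10 p 13.7) lay 0.247 kb from the NKX2-1 peak. The LHX6 peak carried H3K27ac and H3K4me3 in wild type alone and H3K4me1 in both genotypes. The NKX2-1 peak overlapped no H3K27ac region in either genotype. The window of the LHX6 peak, chr6:9083850-9084050, was chosen for printing after its values were seen, because both factors were found there between the lost H3K27ac regions. The window itself overlaps neither of them.
Nxph1 LHX6: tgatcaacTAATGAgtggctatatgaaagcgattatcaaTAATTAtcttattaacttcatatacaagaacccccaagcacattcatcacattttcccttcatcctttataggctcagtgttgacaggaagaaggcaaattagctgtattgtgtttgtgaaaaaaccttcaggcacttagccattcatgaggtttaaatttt
TAATGA and TAATTA occurred 92 and 61 bases before the LHX6 summit, and no NK2 core occurred in the window.

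Nxph4 (chromosome 10, 126962529 to 126971615, minus strand) had 1.23 kb of H3K27ac in wild type but 0 in the mutant, and it was the member whose promoter lost the mark. H3K4me1 was called lower too, over 5.87 and 1.68 kb (3.5-fold), while H3K4me3 covered 2.38 and 3.34 kb and H3K27me3 11.8 and 11.9 kb. Of its H3K27ac regions 4 of 5 were lost, and 9 of 14 H3K4me1 regions. NKX2-1 peaks lay 21.6 and 22.3 kb downstream of its TSS, both nearer to the TSS of Ndufa4l2.

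Nxph3 (chromosome 11, 95371159 to 95375884, minus strand) showed the same direction in H3K4me1 alone, with 5.28 kb in wild type against 2.95 kb in the mutant (1.79-fold). Its H3K27ac covered 1.72 and 1.56 kb, away from the promoter, and an NKX2-1 peak lay 6.24 kb upstream (−log10 p 6.82). Nxph2 (chromosome 2, 23176766 to 23257493, plus strand) differed in H3K27me3, over 0.4 kb in wild type against 1.25 kb in the mutant (3.11-fold), with 0.523 and 0.426 kb of H3K27ac, and with lists of equal length the mutant H3K27me3 was 0.588 kb and no longer called. Among the neurexophilin genes, Nxph1 and Nxph4 were called lower in H3K27ac (1.48% of all genes) and Nxph3 and Nxph4 in H3K4me1 (2.55%). The H3K27ac call of Nxph4 ended with −log10 p of at least 10 and with windows of 25 kb. No neurexophilin gene was called higher in an active mark. A share of all genes called lower in any active mark was not computed.

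The neuroligins, postsynaptic partners of neurexins, had no call in any mark. Nlgn2, the neuroligin of inhibitory synapses, had 7.61 kb of H3K27ac in wild type against 7.78 kb in the mutant, and lost 0 and gained 0 of 3 regions. An NKX2-1 peak lay 33.7 kb from its TSS, inside Fgf11. Windows of Nlgn2 also hold the TSSs of 1810027O10Rik and Plscr3. Nlgn1, the neuroligin of excitatory synapses, had short marks at its TSS (0.618 and 0.601 kb of H3K27ac), yet over the gene H3K27ac covered 1.42 kb in wild type against 4.2 kb in the mutant, with 6 of 10 mutant regions gained and 0 of 4 wild-type regions lost.

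Lrrtm proteins are postsynaptic ligands of neurexins, and Lrrtm1, Lrrtm2 and Lrrtm3 each lie inside an alpha-catenin gene (Ctnna2, Ctnna1 and Ctnna3) on the opposite strand, so marks there cannot be assigned to one gene of the pair. Lrrtm3 (chromosome 10, 63391220 to 63553025, minus strand) was called higher in H3K27ac, 1.95 kb in wild type against 3.08 kb in the mutant (1.58-fold). Lrrtm1 (chromosome 6, 77192683 to 77207785, plus strand) was called lower in H3K27me3, 1.6 and 0.943 kb (1.69-fold), beside 2.65 and 3.22 kb of H3K27ac. Lrrtm2 had an NKX2-1 peak at its TSS (0.025 kb away, −log10 p 13.9), with 3.9 and 3.27 kb of H3K27ac, and Lrrtm4 had 1.15 and 1.14 kb and no call.

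Elfn genes encode postsynaptic proteins that recruit metabotropic glutamate receptors, Elfn1 on interneurons of the somatostatin class, and both were called lower in H3K27ac. Elfn1 (chromosome 5, 140383897 to 140450665, plus strand) had 4.89 kb in wild type against 2.40 kb in the mutant (2.04-fold), while H3K27me3 covered 9.28 and 9.36 kb. Elfn2 (chromosome 15, 78500452 to 78548543, minus strand) had 3.71 and 2.41 kb of H3K27ac (1.54-fold) and 5.26 and 3.20 kb of H3K4me1 (1.65-fold). Over the genes Elfn1 lost 4 of 10 H3K27ac regions and gained 0 of 8, and Elfn2 lost 10 of 19 and gained 0 of 12, so H3K27ac over the gene was 10.6 and 5.31 kb for Elfn1 and 18.1 and 10.8 kb for Elfn2. Both kept H3K4me3 and H3K27me3 at the promoter in each genotype.

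Each Elfn gene had NKX2-1 peaks within 50 kb of its TSS. For Elfn1 the peak lay 15.1 kb upstream (−log10 p 7.87, above 4.19% of its list). For Elfn2 there were 3, between 17.5 and 18.8 kb upstream, on H3K27ac and H3K4me1 that were present in both genotypes, and the strongest (chr15:78566343-78566690, −log10 p 34.8) was above 86.7% of the NKX2-1 list. Its window, chr15:78566418-78566618, is printed as the strongest NKX2-1 peak near a member called lower in H3K27ac. It held none of the 4 cores.
Elfn2 NKX2-1: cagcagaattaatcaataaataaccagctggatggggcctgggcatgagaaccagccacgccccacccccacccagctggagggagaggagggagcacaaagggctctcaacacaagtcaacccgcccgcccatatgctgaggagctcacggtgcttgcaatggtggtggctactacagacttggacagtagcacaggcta

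Lrfn genes encode synaptic adhesion-like molecules, of which some bind postsynaptic scaffolds and others presynaptic tyrosine phosphatases. Lrfn3 (chromosome 7, 31140533 to 31147791, minus strand) was called higher in H3K27ac at the limit of the rule, 1.12 kb in wild type against 1.68 kb in the mutant (1.5-fold), with 3.76 and 2.61 kb of H3K4me1. The strongest NKX2-1 peak counted for it (−log10 p 58.3) lay 40.2 kb from its TSS and 0.161 kb from the TSS of Sdhaf1, so it is near Lrfn3 by the distance rule alone. Lrfn2 held NKX2-1 peaks in introns, the strongest at chr17:49139104-49139576 (−log10 p 40.1, 67.6 kb from the TSS), and another at 112 kb that overlapped an LHX6 peak. H3K27ac at its TSSs covered 4.27 and 3.51 kb, and it lost 5 of 17 regions and gained 1 of 15. Lrfn1, Lrfn4 and Lrfn5 had H3K27ac lengths of 0.359 and 0.348 kb, 2.9 and 3.23 kb, and 2.8 and 2.95 kb, with no call in any mark. The NKX2-1 peaks within 50 kb of Lrfn1 and Lrfn4 lay nearer to the TSSs of Gmfg and Rce1.

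Slitrk proteins bind receptor tyrosine phosphatases across the synapse. Slitrk3 (chromosome 3, 72852048 to 72860865, minus strand), which acts at inhibitory synapses, was called higher in H3K27ac, 3.07 kb in wild type against 4.79 kb in the mutant (1.56-fold), and its H3K4me1 covered 2.62 and 3.88 kb, just under the limit (1.48-fold). Slitrk5 (chromosome 14, 112074337 to 112082356, plus strand) was called higher in H3K27me3, 1.01 and 3.23 kb (3.19-fold), beside 5.33 and 4.92 kb of H3K27ac. Slitrk6 (chromosome 14, 111147800 to 111154371, minus strand) had no H3K27ac in either genotype and 0.657 and 1.25 kb of H3K4me3 (1.9-fold). Slitrk1 had 3.9 and 4.37 kb of H3K27ac and no call. No Slitrk gene had a peak of either factor within 50 kb of its TSSs.

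Contactins changed in either direction. Cntn1 (chromosome 15, 91881596 to 92172398, plus strand), the axonal contactin of paranodal junctions, was called lower in H3K27ac, 3.92 and 2.45 kb (1.6-fold), and higher in H3K27me3, 0.294 and 1.27 kb (4.31-fold). The H3K27me3 lay at the first of its promoters, which kept H3K4me3 (2.1 and 2.19 kb) and H3K27ac (1.52 and 1.13 kb). Of the H3K27ac regions of Cntn1 4 of 6 were lost, and these lay elsewhere. They were 81.4, 82.5, 83.2 and 237 kb from the first TSS (−log10 p 7.26 to 13.7). Cntn2 (chromosome 1, 134406002 to 134439517, minus strand), the contactin of juxtaparanodes, was called higher in H3K27ac, 0.873 and 2.1 kb (2.4-fold), and in H3K4me3, 1.46 and 2.83 kb (1.93-fold). With windows of 25 kb Cntn2 had 10.5 and 10.2 kb of H3K27ac, so the direction of that call depends on the window.

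Cntn5 (chromosome 9, 9660891 to 10904775, minus strand) was called higher in H3K4me1, 1.4 and 2.43 kb (1.74-fold), and H3K4me3, 1.88 and 3.25 kb (1.73-fold). With lists of equal length both calls of Cntn5 ended, at 1.51 kb of H3K4me1 and 2.71 kb of H3K4me3 in the mutant. With −log10 p of at least 10 its H3K4me1 call ended too (1.51 kb). Over the gene its H3K27ac covered 5.06 kb in wild type against 13.2 kb in the mutant (2.62-fold), with 13 of 20 mutant regions gained, and H3K4me1 gained 27 of 39 regions. Cntn4 and Cntn6 had 1.53 and 1.33 kb, and 0.865 and 1.15 kb of H3K27ac, and no call in any mark. Cntn3 had no region of any mark within 10 kb of its TSSs. None of the 6 contactins had a factor peak within 50 kb of a TSS, although Cntn5 held 2 NKX2-1 peaks and 1 LHX6 peak farther inside the gene.

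Among the contactin-associated proteins Cntnap2 (chromosome 6, 45010060 to 47251368, plus strand), which clusters potassium channels with Cntn2, had 4.44 kb of H3K27ac in wild type against 7.95 kb in the mutant (1.79-fold), and 1.03 kb of H3K27me3 in the mutant against 0 in wild type. This H3K27me3 and most of the gained acetylation lay at different ends. The H3K27me3 lay at the first promoter, which kept its H3K4me3 (2.55 and 2.43 kb) and also carried H3K27ac in both genotypes (0.992 and 1.26 kb). Of the mutant H3K27ac regions 20 of 40 were gained, most of them between 2168 and 2246 kb, around the second TSS at 2184 kb. The H3K27me3 call ended with lists of equal length (0 in the mutant) and with −log10 p of at least 10 (0.514 kb). Over the gene H3K27ac covered 18.8 and 30.6 kb. Cntnap3 (chromosome 13, 64838899 to 65005196, minus strand) was called higher in H3K4me3, 0.756 and 1.26 kb (1.66-fold). Cntnap1, the paranodal partner of Cntn1, had 3.61 and 3.51 kb of H3K27ac beside 10.6 and 11.4 kb of H3K27me3, with the TSSs of Ccr10 and Plekhh3 in its window, and Cntnap4 had 1.91 and 1.6 kb of H3K27ac. Neither was called in any mark.

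**Figure D4:**
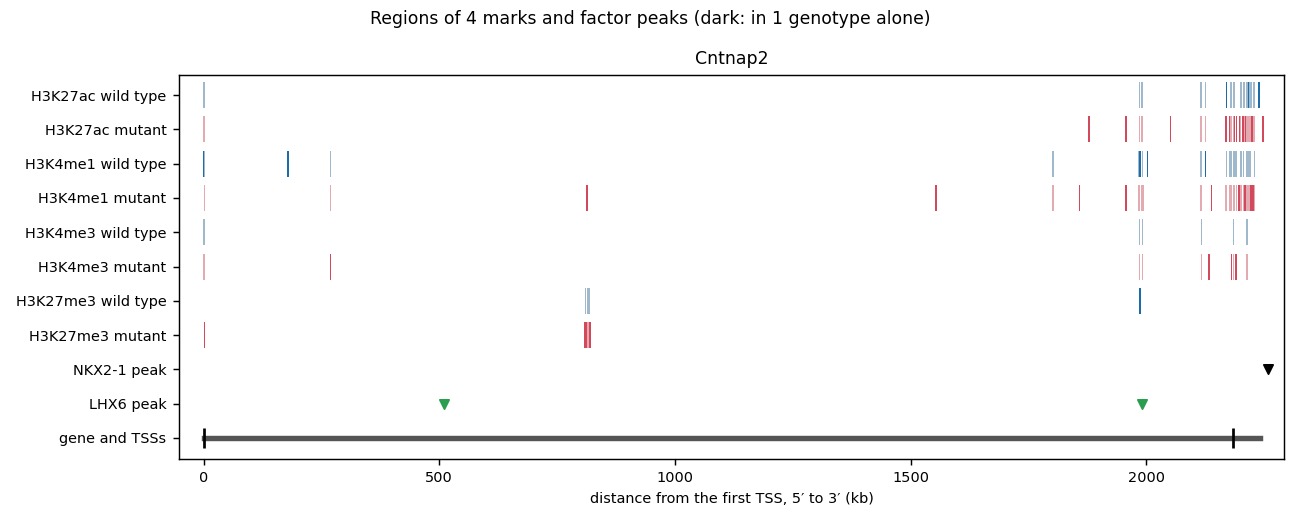
Regions of the 4 marks in each genotype along Cntnap2, with factor peaks (triangles), the gene (bar) and protein-coding TSSs (ticks), by distance from the first TSS in kb; dark bars are regions present in 1 genotype alone. The gained H3K27ac regions lie mostly around the second TSS at 2184 kb.

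Polycomb marking was also compared inside the genes, away from the promoters. Regions of H3K27me3 over a member were joined into clusters where gaps were at most 20 kb, and those more than 10 kb from a protein-coding TSS of the gene were kept, a measure added after the lists were seen. The 9 clusters lay in 7 genes, and 6 were longer and 3 shorter in the mutant. Over all genes 81.2% of 1376 such clusters were longer and 18.6% shorter, so longer clusters were not more frequent in the members. Absent from the mutant were 3 short clusters, of 0.615 kb in Cntn5, 0.522 kb in Cntnap2 (1985 kb from its first TSS) and 0.399 kb in Nrxn2. Another 2 of the 9 were absent from wild type. Over all genes 8.5% of such clusters were absent from the mutant and 38.6% from wild type. The longer clusters with a call are described for Cntn4, Cntnap2 and Nrxn3. In Cntn4 a cluster of 17.4 kb (6, 106460366 to 106477793) had 3 regions over 1.84 kb and 13 over 11 kb (6.01-fold). In Cntnap2 a cluster of 11.3 kb (6, 45816916 to 45828252) had 3 regions over 1.19 kb and 9 over 5.08 kb (4.27-fold). In Nrxn3 a cluster of 11 kb (12, 91365553 to 91376513) had 0 regions in wild type and 8 over 5.92 kb in the mutant.

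The longer clusters in Cntn4, Cntnap2 and Nrxn3 differed in the company they kept. The Cntn4 cluster held no H3K27ac, H3K4me1 or H3K4me3 in either genotype and the start of a noncoding transcript of Cntn4. The Cntnap2 cluster held 0.352 kb of H3K4me1 in the mutant alone and no H3K27ac or H3K4me3. The cluster in Nrxn3 held all 3 active marks in both genotypes, with H3K27ac over 1.22 and 1.21 kb. Over the members 55 of 113 mutant H3K27me3 regions were gained (48.7%), against 41.1% over all genes, and 8 of 75 wild-type ones lost (10.7%; 13.2%). With the mutant H3K27me3 list trimmed to the wild-type length the mutant lengths were 8.36 kb in Cntn4, 3.6 kb in Cntnap2 and 4.19 kb in Nrxn3, each still at least 1.5-fold above wild type.

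Region counts of the other marks leaned toward gains over the members, as they did over all genes. H3K4me1 lost 75 of 382 wild-type regions (19.6%; 14.6% of regions over all genes) and gained 157 of 469 mutant ones (33.5%; 20.8%). H3K4me3 lost 8 of 120 (6.67%, against 3.26% over all genes) and gained 60 of 165 (36.4%, against 23.7%). Of the gained H3K4me3 regions 57 lay beyond 2.5 kb of any TSS, out of 106 mutant regions there (53.8%). A share over all genes at that distance was not computed for H3K4me1 or H3K4me3. Nrxn3 accounted for 39 of the gained H3K4me1 regions and Cntn5 for 27.

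Binding of the factors within 50 kb of a TSS was about as frequent at members as elsewhere. NKX2-1 peaks lay within 50 kb of 11 of 34 members (32.4%, exact Clopper-Pearson 95% interval 17.4 to 50.5, counting error only), against 27.7% of all genes: Nrxn2, Nrxn3, Nlgn2, Nxph3, Nxph4, Lrrtm2, Lrfn1, Lrfn3, Lrfn4, Elfn1 and Elfn2. LHX6 peaks lay within 50 kb of 1 member, Nrxn3 (2.94%, 0.0744 to 15.3), against 2.78%. Anywhere in the gene or within 50 kb of its ends, 35 NKX2-1 peaks lay at 18 members (32.6% of all genes) and 7 LHX6 peaks at 6 (4.17% of all genes), among them Nrxn3, Nxph1, Cntn5, Cntnap2 and Lrfn2. This count gives longer genes more room, and members are long. Of the 35 NKX2-1 peaks, 31 lay on wild-type H3K27ac and 29 on mutant H3K27ac (70.7% and 65.4% of all NKX2-1 peaks), and 0 on wild-type and 2 on mutant H3K27me3 (8.28% and 9.96% of all). An NK2 core lay in the windows of 2 of the 35 NKX2-1 peaks (21.4% of all NKX2-1 windows, 4.94% of windows 1 kb to the side). A LIM core lay in 9 of them (25.8% and 15%) and in 3 of the 7 LHX6 windows (41.6% and 17.1%).

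Set beside the acetylation calls, an NKX2-1 peak lay within 50 kb of 3 of the 5 members called lower in H3K27ac (Elfn1, Elfn2 and Nxph4), 1 of the 6 called higher (Lrfn3) and 7 of the other 23. Over all genes the shares were 46.3%, 29.4% and 27.4%. Single H3K27ac regions were compared after the values were seen. A factor peak lay within 1 kb of 6 of 69 lost regions of members (8.7%) and of 2 of 103 gained ones (1.94%), and over all genes of 8.4% and 1.61%. Wild-type regions shared with the mutant had a peak within 1 kb in 22 of 196 cases (11.2%; 10.6% over all genes). Lost regions were also weaker than shared ones (median −log10 p 9.04 against 18.1), and a part of the factors in the losses was not tested.

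A list of 46 other genes of the pathway (presynaptic phosphatases, latrophilins, cerebellins, scaffolds and further adhesion proteins), of which 46 matched the annotation, gave a smaller share of acetylation calls than the members. The share was still above that of all genes. Every gene of the list had H3K27ac in its windows in at least 1 genotype, while 32.7% of all genes had none. H3K27ac was called lower at 3 (6.52%, against 1.48% of all genes and 2.6% of those with at least 1 kb), Cbln1, Dlgap2 and Flrt1. It was called higher at 4 (8.7%, against 3.85% and 6.75%), Cbln2, Clstn2, Lphn2 and Nptxr. H3K27me3 was called higher at 9 (19.6%; 5.85% of all genes, 25.9% of those with at least 1 kb) and lower at 0 (0.324%). H3K4me1 was called higher at 1 (Flrt3; 3.09%) and lower at 0 (2.55%), and H3K4me3 at 0 in either direction (2.72% higher and 0.117% lower). Clstn2, which encodes the postsynaptic calsyntenin-2, was called in 2 marks. Its H3K27ac covered 0.845 kb in wild type against 1.74 kb in the mutant and its H3K27me3 1.96 and 3.13 kb. Among the secreted cerebellins, which bind neurexins, Cbln1 had 1.59 and 1 kb of H3K27ac and Cbln2 0.274 and 1.22 kb, so these members of 1 family were called in opposite directions. NKX2-1 peaks lay within 50 kb of 19 of the 46 (41.3%; 27.7% of all genes) and LHX6 peaks within 50 kb of 4 (8.7%; 2.78%).

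H3K27ac was also summed around genes listed as markers of cell types, apart from the members. The 7 genes listed for the MGE (Nkx2-1, Lhx6, Lhx8, Dlx1, Dlx2, Dlx5 and Gsx2) carried promoter H3K27ac in both genotypes (7 and 7). Its summed length around them was 92.8 kb in wild type against 69.7 kb in the mutant, and this sum includes Nkx2-1, the gene removed. The 4 genes listed for the neighbouring lateral eminence (Meis2, Isl1, Ebf1 and Foxp1) carried promoter H3K27ac likewise (4 and 4), over 30.5 and 59.1 kb. How far each listed gene is confined to its region was not tested. Markers of progenitors (42.6 and 42.8 kb) and neurons (34.8 and 35.2 kb) differed little. Promoter H3K27ac was present at 1 of 6 pallial markers in either genotype (absent from Emx1, Eomes, Neurod2, Neurod6 and Tbr1), 0 of 4 microglial ones, 0 and 1 of 4 endothelial ones (Kdr in the mutant), 1 of 3 oligodendrocyte and 1 and 2 of 3 astrocyte ones. The part of a shift in cell makeup in the members' differences was not tested.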

How the data were processed

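Peak lists of 10 libraries (8 of marks, 2 of factors) were used, and the 10 input and IgG samples have no list and were not analysed here. Samples were grouped by antibody and genotype from their titles. Per the submitters' processing notes, reads were handled with BWA 0.6.2, MACS2 2.1.0, CASAVA 1.8.2 and bcl2fastq 1.8.4, and the build was mm9. Per the file headers, MACS2 2.1.0.20140616 called regions against input at p 1.00e-05, without local background or model, extending tags by 250 bases, splitting summits and keeping 1 tag per position. The deposited columns are the pileup signal, the −log10 p and −log10 q-values and the authors' fold enrichment (a ratio to control). The headers say that q-values were not calculated, so that column was not used, and fold and −log10 p describe or rank peaks within a list. Depth was 26.8 to 89.1 M tags after duplicate removal, per the file headers.

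Summits of 1 region were merged, covered bases, overlaps and distances computed on chromosomes 1 to 19 (samtools 1.23.1, pysam 0.24.0, scipy 1.17.1, numpy 2.4.6, pandas 2.3.3 and matplotlib 3.10.9 in Python 3.11.15), and the code tested on simulated regions. Annotation entries of 1 symbol were joined (139 entries). With 1 library per group no test between genotypes was possible, and calls were set beside the share of all genes called. The windows are the union over TSSs, since a window from the first to the last TSS would span whole genes. The values of 1 member are not reported here. The other members are accounted for, and named with values are those called in a mark or with a factor peak within 50 kb, the strongest factor peaks (from a list of 8), and other pathway genes called in at least 2 marks. Other names were chosen after their values were seen. The members and lists were chosen with earlier results of these data known. The printed sequences are of the NCBIM37 reference genome. Sequence at peaks over exons and on chromosome 18 is not shown.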

Additional observations from a re-analysis of the deposited data

How the results depend on the processing

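Calls depend on thresholds set on 1 library per group, and weak regions decide many of them. Of the recomputed counts, 87 stayed within 1.5 times the reported count and 33 did not. With 5 kb windows, 2 members were called higher in H3K27ac and 1 in H3K4me1. With 25 kb windows, 4 were called higher in H3K4me1, and Cntn2 H3K27ac reversed (−0.285 kb, mutant minus wild type). With 1 window from the first to the last TSS, 1 was called lower in H3K27me3. With −log10 p of at least 10, 2 were called lower in H3K27ac, 5 lower and 1 higher in H3K4me1, promoter marks gave 1 gain of H3K27ac, 1 loss of H3K4me1 and 4 gains of H3K27me3, and 28 H3K27ac regions were lost and 60 gained. With lists of equal length, 0 were called higher in H3K4me1, 1 lower in H3K4me3 and 2 higher in H3K27me3, promoters lost H3K27ac at 3, H3K4me1 at 1, H3K4me3 at 1 and H3K27me3 at 3, and gained H3K27me3 at 0. At 2-fold, 3 were called lower and 1 higher in H3K27ac, 1 lower and 0 higher in H3K4me1, 0 higher in H3K4me3 and 1 lower in H3K27me3. Promoters of 1 kb lost H3K27ac at 2. With the Cntnap5 genes added, 1 gene was called lower in H3K4me3 (Cntnap5c) and 2 promoters gained H3K27me3. With TSSs of all transcripts, 0 promoters gained H3K27me3 and 2 members had an LHX6 peak. The H3K27me3 clusters, compared under settings added after the data were seen, kept their calls in Cntn4, Cntnap2 and Nrxn3. Over whole genes with 50 kb, 18 members had an NKX2-1 and 6 an LHX6 peak. Apart from thresholds and window sizes as built, the cause was not tested. Of the single-member values, 158 kept their call, 31 fell below the limit and 1 reversed. The 158 include 23 from adding the Cntnap5 genes, a setting that cannot change the value of a member. The window from the first to the last TSS likewise cannot change a member with 1 TSS, so 158 overstates how often a call was put to a test. No paired analysis was possible because the lists compared have 1 library per group and no test.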
